A study of Mus musculus with 6 samples.

Results

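Cultures without Foxd1 were compared with all cultures that carried it, within replicate number, 8 days into a reprogramming experiment. RNA was measured on 6 Affymetrix arrays of mouse embryonic fibroblasts (MEFs), primary connective tissue cells grown out of embryos. Of these arrays, 2 came from Foxd1-/- cells, which lack both copies of the gene, and 4 came from cells with at least 1 copy, 2 of them Foxd1+/+ and 2 Foxd1+/-. Every culture, the controls included, was infected on day 0 with retroviral vectors that carry Oct4, Sox2 and Klf4 and was kept in medium with 10% foetal bovine serum, so no array shows cells without these factors. The labels number the arrays 1 and 2 within each genotype and call them biological replicates. They do not say whether a number marks an embryo, a litter or an infection, nor which part of Foxd1 the null allele lacks. P-values therefore measure the spread between these arrays. Between the carriers this spread includes a difference in sex chromosome transcripts, given below. Between the 2 Foxd1-/- arrays it may be technical.

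For each of 19938 genes, the log2 intensity on a Foxd1-/- array was set against the mean of the Foxd1+/+ and Foxd1+/- arrays of the same number, which gave 1 difference per replicate. Log2 values are those of the deposited intensity plus 1, so a difference of 1 is a doubling and differences of dim genes are understated. A gene was counted as agreeing when the Foxd1-/- array lay outside both carrier arrays, on the same side in both replicates, and by at least 0.5 in each. By this rule 87 genes (0.436%) agreed, 59 of them higher and 28 lower in Foxd1-/- cells. The rule uses size and order alone and is a description, not a test. Genes beyond the first 15 in either direction by the smaller difference are named after their values were seen.

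Foxd1 is a forkhead transcription factor best known from the stroma of the developing kidney. During reprogramming by Oct4, Sox2 and Klf4, fibroblasts first lose their mesenchymal genes and gain epithelial ones, and only a small share later switches on the pluripotency network. Fibroblasts also mount an innate response to foreign nucleic acids: sensors such as Rig-I and Mda5 induce type I interferon, whose receptor activates transcription factors, among them Stat2 and Irf9, that bind interferon-stimulated response elements in the promoters of antiviral genes.

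Foxd1 itself checked the Foxd1-/- labels. Its intensity was 1907 on the Foxd1+/+ array, 1014 on the Foxd1+/- array and 189 on the Foxd1-/- array of replicate 1, and 1169, 2074 and 213 in the same order in replicate 2. Both Foxd1-/- arrays were below all 4 carrier arrays, by 7.32-fold and 7.28-fold against the carrier mean. The remaining signal was above the lowest intensity of any probe set, 19.5, and whether the probe set lies in the missing part is not known. The 2 carrier genotypes did not order themselves by dose of Foxd1: Foxd1+/+ read higher in replicate 1 and Foxd1+/- in replicate 2. Of the 50 genes nearest to Foxd1 on its chromosome, 25 on each side in the gene order of the GRCm38.p6 assembly, 0 agreed. None differed by more than 0.23 on the same side in both replicates.

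The arrays also differed in sex chromosome transcripts, and this was not balanced between the groups. The Y-linked genes Eif2s3y, Kdm5d and Uty were high on 1 carrier array of each number, and Xist, the RNA made by the inactive X chromosome, was high on the other 4 arrays. Uty read 24.1, 244 and 25.9 in replicate 1 and 274, 24.8 and 23.6 in replicate 2, in the order Foxd1+/+, Foxd1+/- and Foxd1-/- that is used throughout. Xist read 514, 33.7 and 623 in replicate 1 and 35.2, 692 and 848 in replicate 2. Each Foxd1-/- array, which had Xist and no Y-linked signal, was therefore set against 1 carrier with and 1 carrier without Y-linked signal. Against the Xist-positive carrier of its number, the Foxd1-/- array was higher in Xist by 0.28 in replicate 1 and 0.29 in replicate 2, which is under the size of 0.5. Xist counts among the genes that agreed through the other carrier, whose low value enters the carrier mean and gives differences of 2.22 and 2.42. Foxd1 was higher on the Xist-positive carrier in both replicates. All results below are given with this difference in place, and its part in them was not tested. Some results are also given from a fit with a term for the Y-linked markers. Neither Foxd1-/- array had Y-linked signal, so that term rests on 1 carrier against the other in each number. It cannot separate sex chromosome transcripts from other differences between those carriers, Foxd1 included.

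**Figure D1:**
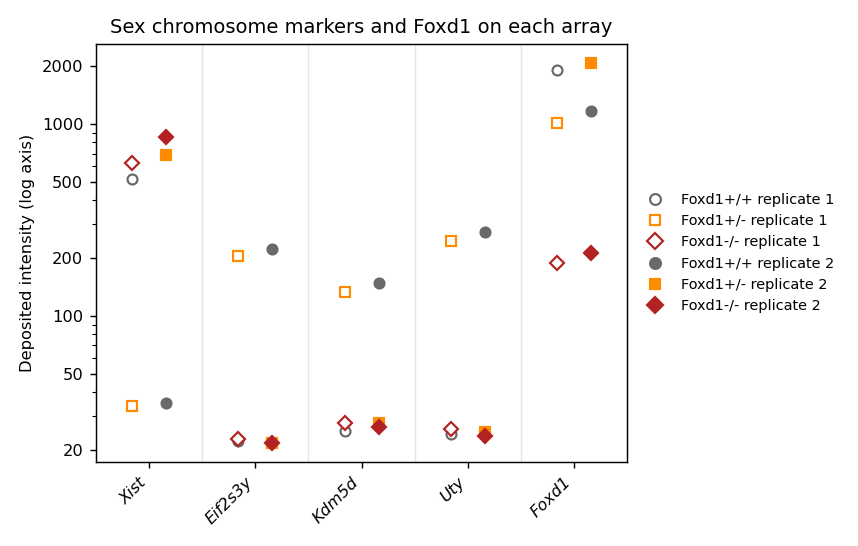
Deposited intensity, on a log axis, of Xist, 3 Y-linked genes and Foxd1 on each of the 6 arrays, with open symbols for replicate 1 and filled symbols for replicate 2. The Y-linked genes were high on Foxd1+/- replicate 1 and Foxd1+/+ replicate 2, and Foxd1 was lowest on both Foxd1-/- arrays.

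Markers of fibroblasts and of pluripotent cells were read on every array, without a baseline before infection. Col1a1, which encodes the main fibrillar collagen chain, lay between 4368 and 7143 on the 6 arrays, and Vim, the mesenchymal filament vimentin, between 7254 and 8287. Nanog, a core pluripotency factor, read 880.0, 581 and 549 in replicate 1 and 607, 817 and 499 in replicate 2. Zfp42, a marker of established pluripotent cells, lay between 36.9 and 42.9, near the low end of the scale, and no detection calls accompany the values. Dppa5a, also read as a marker of pluripotent cells, was at 1074, 660 and 774 in replicate 1 and 143, 323 and 300 in replicate 2. Its differences were on opposite sides, at -0.12 and 0.48. The introduced factors were measured by probe sets that need not separate viral from endogenous RNA. Pou5f1 (Oct4) read 580.3, 331 and 348 in replicate 1 and 138, 298 and 145 in replicate 2, with differences of -0.33 and -0.48. In each replicate the Xist-positive carrier had the most, and the Foxd1-/- array was 0.071 above the other carrier in replicate 1 and 0.072 in replicate 2. Sox2 differed by -0.076 and -0.047 and Klf4 by 0.057 and 0.20. None of the introduced factors, Pou5f1 included, passed the test.

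Across the genome the Foxd1-/- difference was tested with limma, with the replicate number as a block and Benjamini-Hochberg adjustment over all genes. At an adjusted p below 0.05 the test called 0 genes (0% of genes). The smallest adjusted p was 0.0781, 44 genes (0.221%) were under 0.1, and 2333 (11.7%) had an unadjusted p under 0.05, 1300 of them higher and 1033 lower in Foxd1-/- cells. None of the differences below therefore passed the test at 0.05 in this fit, and the words higher and lower give the side of the measured values. The fit had 3 residual degrees of freedom. The count depended on the settings of the paired fit: limma called 15 genes with dim genes left out, 7 with arrays centred on the median and 38 with a trended prior.

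The 59 genes that agreed higher were 0.296% of all genes, the 28 that agreed lower were 0.140%, and 0 genes were past the size on opposite sides in the 2 replicates. Replicate 2 gave the wider spread. Taken alone, replicate 1 had 71 genes at least 0.5 higher and 53 at least 0.5 lower, against 277 and 182 in replicate 2. The standard deviation of the differences over genes was 0.123 in replicate 1 and 0.191 in replicate 2. Across genes, which are not independent replicates, the 2 differences had a Pearson r of 0.514 and a Spearman rho of 0.32, and r was 0.429 without the agreeing genes. The Foxd1-/- arrays lay wholly above or below the 4 carriers for 29 of the 87 genes, and for 2163 of all genes (10.8%). For the others a carrier of 1 replicate reached the Foxd1-/- value of the other replicate, and only the comparison within a number separated the groups. At the edge of the rule, Laptm5 at -0.51 and -0.54 and Igfbp5 at 0.50 and 1.02 were just inside, and Slc2a1 at -0.50 and -0.57 and Gpm6b at -0.50 and -0.50 were just outside.

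**Figure D2:**
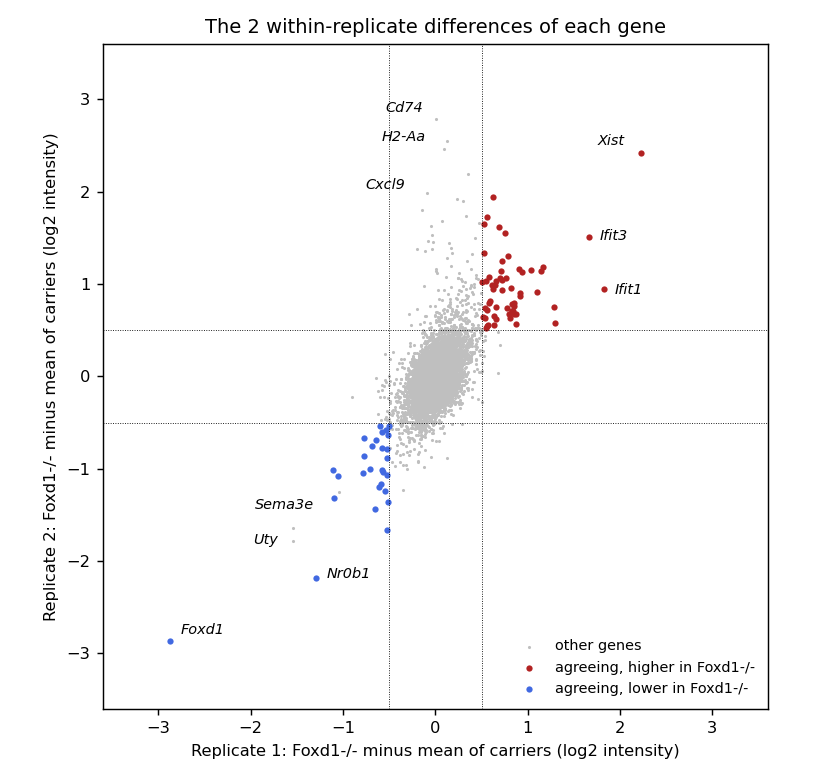
Each point is 1 gene, with its Foxd1-/- minus carrier difference in replicate 1 on the horizontal axis and in replicate 2 on the vertical axis, both in log2 intensity, and dotted lines at 0.5. Points in red (59 higher) and blue (28 lower) agreed, Foxd1 stands alone at the lower left, and H2-Aa, Cd74 and Cxcl9 were high in replicate 2 only.

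Interferon-stimulated genes made up most of the higher group. By roles assigned by hand after the values were seen, 37 of the 59 were interferon-stimulated genes, of which 25 stood in the interferon lists and 12 did not. The other 22 were 3 imprinted genes, 4 genes of extracellular matrix, Xist and 14 genes of other roles. The first 4 interferon-stimulated genes by the smaller of their 2 differences whose RefSeq promoter window holds an ISRE core are shown with that window, the 250 bases before a transcript start, 5′ to 3′ on the strand of the gene, because this is the element that Stat2 and Irf9 act on in the interferon response. The coordinates are those of GRCm38.p6, and capitals mark GAAANNGAA or its reverse complement. Ifit3 lies at chr19:34583279-34583528 on the plus strand with 3 matches, Ifi203 at chr1:173942493-173942742 on the minus strand with 1, Trim30a at chr7:104465194-104465443 on the minus strand with 1, and Ifit1 at chr19:34640639-34640888 on the plus strand with 3, of which the first and second overlap.
Ifit3: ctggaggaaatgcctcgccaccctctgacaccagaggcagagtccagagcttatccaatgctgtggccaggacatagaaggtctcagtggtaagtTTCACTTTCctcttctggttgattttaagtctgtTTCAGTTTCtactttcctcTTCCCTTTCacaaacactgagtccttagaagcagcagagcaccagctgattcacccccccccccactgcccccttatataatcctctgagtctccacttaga
Ifi203: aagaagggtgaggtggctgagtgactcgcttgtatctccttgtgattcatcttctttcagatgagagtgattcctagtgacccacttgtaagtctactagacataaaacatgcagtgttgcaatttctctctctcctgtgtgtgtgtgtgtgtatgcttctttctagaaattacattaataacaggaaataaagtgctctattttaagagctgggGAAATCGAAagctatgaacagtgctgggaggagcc
Trim30a: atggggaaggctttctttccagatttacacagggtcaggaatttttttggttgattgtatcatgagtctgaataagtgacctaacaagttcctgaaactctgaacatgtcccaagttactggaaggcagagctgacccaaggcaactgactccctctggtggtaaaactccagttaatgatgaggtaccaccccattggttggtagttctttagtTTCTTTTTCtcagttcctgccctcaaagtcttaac
Ifit1: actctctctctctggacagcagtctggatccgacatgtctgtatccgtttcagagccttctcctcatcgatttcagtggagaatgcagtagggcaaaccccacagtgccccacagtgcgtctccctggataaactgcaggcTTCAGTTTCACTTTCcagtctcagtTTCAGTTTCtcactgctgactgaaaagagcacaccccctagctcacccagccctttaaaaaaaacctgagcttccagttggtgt

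In Ifit3 and Ifit1 the element stands as TTCACTTTC, TTCAGTTTC or TTCCCTTTC, in Ifi203 as GAAATCGAA and in Trim30a as TTCTTTTTC. Of the agreeing higher genes, 40 had a RefSeq window of 300 bases, 250 before and 50 after a start, and 19 of these (47.5%) held the ISRE core on either strand. Over all measured genes with a window, 1432 of 15563 (9.20%) held it. Among the 25 genes with an interferon role and a window the count was 17 (68.0%), among the 15 others it was 2 (13.3%), and among the 22 agreeing lower genes with a window 0. In 69 of 2812 windows with an ISRE core it overlapped a match of another motif searched. A match describes the letters of the window and shows no binding.

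Among these genes were effectors that act on viral RNA. Ifit3, which binds viral RNA in a complex with Ifit1, read 67.1, 60.9 and 204 in replicate 1 and 274, 548 and 1108 in replicate 2. The Foxd1-/- array was above both carriers in each replicate, yet the Foxd1+/- array of replicate 2 exceeded the Foxd1-/- array of replicate 1. The differences of Ifit3 were 1.66 and 1.51, or 3.16-fold and 2.85-fold, and the paired fit gave 1.59 ± 0.26 (log2 difference ± SE; limma, Benjamini-Hochberg adjusted p = 0.132). Ifit1, which recognises the cap of foreign RNA, read 101, 75.4 and 312 in replicate 1 and 358, 838 and 1056 in replicate 2. Its differences were 1.83 and 0.95, and in replicate 2 the Foxd1+/- array was near the Foxd1-/- array. Rsad2, the antiviral enzyme viperin, showed the same arrangement more plainly, at 332 in Foxd1+/- and 333 in Foxd1-/- of replicate 2.

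Members of the Ifi200 family, which sense DNA or regulate transcription in the nucleus, were among the agreeing genes too. Ifi203 read 60.9, 58.1 and 135 in replicate 1 and 150.4, 197 and 392 in replicate 2. Its differences of 1.17 and 1.18 were near equal, and the fit gave 1.17 ± 0.11 (limma, adjusted p = 0.0781), among the smallest adjusted p-values of all genes. Ifi205 differed by 0.77 and 1.06 and Ifi207 by 0.60 and 0.81, and Ifi207 was above all 4 carriers on both Foxd1-/- arrays. These genes, like the Ifit, Gbp and Trim30 families, have near-identical copies side by side, and probes may take up RNA of more than 1 of them.

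The factors that carry the interferon signal read higher along with the effectors. Stat2, which acts with Irf9 at the response element, read 381, 341 and 652 in replicate 1 and 970.1, 1081 and 1773 in replicate 2. Its differences of 0.85 and 0.79 were near equal, with a fit of 0.82 ± 0.070 (limma, adjusted p = 0.0781). Irf7, which amplifies interferon production, read 169, 148 and 349 in replicate 1 and 348, 583 and 992 in replicate 2, with differences of 1.14 and 1.14 and an adjusted p of 0.140 in limma. Irf9 missed the size in replicate 2, at 0.52 and 0.27. Sensors of RNA agreed as well. Ifih1 (Mda5) differed by 0.79 and 0.67, Dhx58 (Lgp2) by 0.72 and 0.94 and Ddx60 by 0.90 and 1.16. Usp18, which shuts the interferon receptor down, differed by 1.29 and 0.58.

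Antiviral enzymes and restriction factors were also in the group. Bst2 (tetherin), which holds budding virions at the cell surface, read 353, 282 and 559 in replicate 1 and 1000.2, 1322 and 2239 in replicate 2. Rtp4, an interferon-induced transmembrane protein, differed by 1.10 and 0.91, Rnf213, a large ubiquitin ligase, by 0.92 and 0.87, and Trim30a by 1.04 and 1.15. The 2′,5′-oligoadenylate synthetase family was represented by Oasl2 at 1.28 and 0.75, Oas2 at 0.85 and 0.68, Oas3 at 0.55 and 1.04 and Oas1b at 0.54 and 0.63. Ifit3b, Ifi27l2a, Parp14, Lgals3bp, Sp100, Phf11d, Trim30d, Cmpk2 and Zbp1 are named to complete the group, together with the interferon gamma genes below. Their smaller differences lay between 0.58 for Cmpk2 and 0.78 for Ifit3b.

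The agreeing genes that respond to interferon gamma, guanylate-binding proteins among them, had larger differences in replicate 2 than in replicate 1, by little for Gbp3 and by more for the others named here. Gbp3, a GTPase that attacks the membranes of intracellular pathogens, read 305, 257 and 539 in replicate 1 and 1334, 1422 and 3024 in replicate 2, and its differences of 0.94 and 1.13 gave a fit of 1.04 ± 0.086 (limma, adjusted p = 0.0781). Gbp7 differed by 0.65 and 0.99, Gbp4 by 0.56 and 1.73, Gbp9 by 0.52 and 1.65, Iigp1 by 0.75 and 1.56 and Gm4951 by 0.69 and 1.62. Psmb8, a subunit of the immunoproteasome that cuts peptides for antigen presentation, read 155, 114 and 192 in replicate 1 and 464, 488 and 1200.4 in replicate 2. Cxcl10, a chemokine that draws T cells, read 63.5, 57.2 and 93.2 in replicate 1 and 166, 311 and 875 in replicate 2, so the Foxd1-/- array of replicate 2 stood far from all others.

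**Figure D3:**
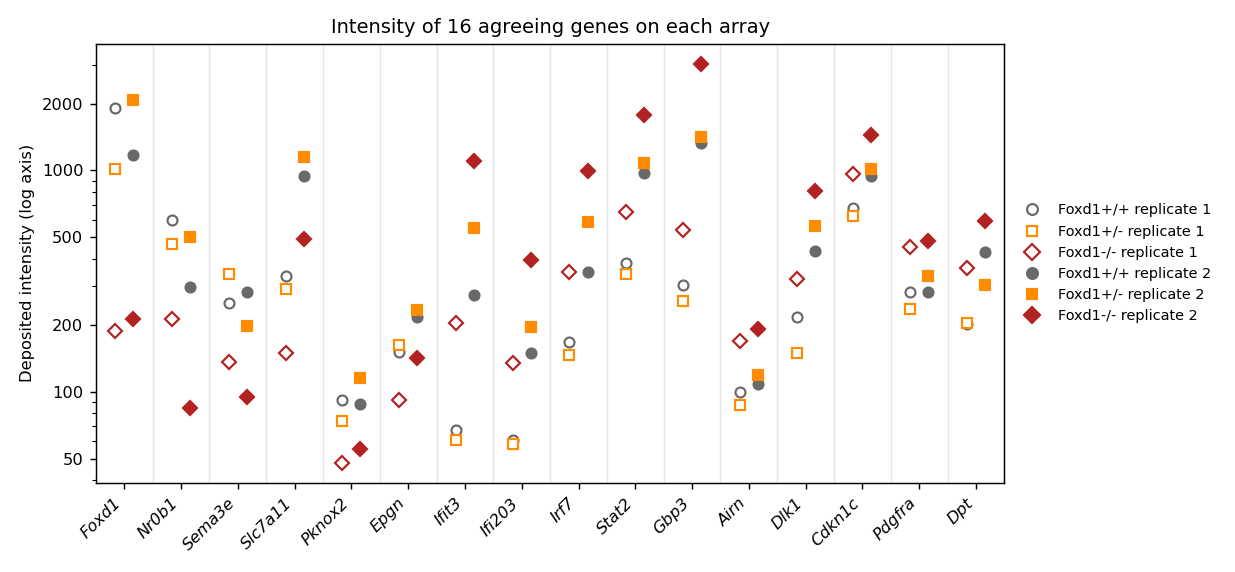
Deposited intensity on a log axis of 16 agreeing genes on each array, open symbols for replicate 1 and filled symbols for replicate 2. Within each replicate the Foxd1-/- diamond lies outside both carriers for every gene shown, while the interferon-stimulated genes Ifit3, Ifi203, Irf7, Stat2 and Gbp3 were higher in replicate 2 in all genotypes.

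The interferon lists were written with earlier results of these data known. They hold 25 of the agreeing higher genes, so their counts are not separate support. Of 42 measured genes of the interferon response list, 42 had both differences above 0 (all genes, 29.3%). An unadjusted limma p under 0.05 was found for 39 (all genes, 11.7%), and 20 agreed (all genes higher, 0.296%). The list's median difference was 0.52 in replicate 1 and 0.71 in replicate 2, against 0.0048 and -0.0062 for all genes. Against single carriers the median was 0.49 and 0.57 in replicate 1 (against Foxd1+/+ and Foxd1+/-), and 0.97 and 0.43 in replicate 2. The carriers differed from each other on this list as well, with Foxd1+/- below Foxd1+/+ by a median of -0.16 in replicate 1 and above it by 0.40 in replicate 2. Replicate 2 stood above replicate 1 on this list in every genotype, by a median of 0.73 in Foxd1+/+, 1.26 in Foxd1+/- and 1.26 in Foxd1-/- arrays. Of the 19 measured genes for interferon gamma GTPases and antigen processing, 18 were higher in both replicates and 5 agreed, with medians of 0.34 and 1.02.

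Unlike the sensors Ifih1, Dhx58 and Ddx60, no measured gene of the list of ligands and receptors agreed. Ifnb1, the interferon that fibroblasts make first, read 25.5, 25.4 and 27.2 in replicate 1 and 25.4, 26.1 and 25 in replicate 2, and Ifng lay between 35.5 and 46, all near the low end of the scale. Of 19 measured genes of the list of ligands and receptors, which also holds signalling and sensing components, 12 were higher in both replicates (63.2%, against 29.3% of all genes) and 0 agreed, with medians of 0.063 and 0.10. Ifnar1, a chain of the receptor, differed by 0.063 and -0.068. Irf1, a target of both interferon types, differed by 0.12 and 1.07, a split in size like that of the Gbp genes.

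A small group of imprinted genes, expressed from 1 parental copy only, was higher in Foxd1-/- cells by nearly equal amounts in both replicates. Airn, the paternally expressed antisense RNA of the Igf2r locus, read 100.1, 87 and 169 in replicate 1 and 108, 119 and 193 in replicate 2, so both Foxd1-/- arrays were above all 4 carriers. Its differences of 0.85 and 0.76 gave 0.81 ± 0.075 (limma, adjusted p = 0.0789). Dlk1, a paternally expressed inhibitor of differentiation, read 219, 149.6 and 325 in replicate 1 and 434, 562 and 806 in replicate 2. Cdkn1c, a maternally expressed inhibitor of the cell cycle (p57), read 675, 621 and 965 in replicate 1 and 942, 1019 and 1445 in replicate 2, and its differences were 0.57 and 0.56 (0.57 ± 0.058 in limma, adjusted p = 0.0794).

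Below the size limit, Meg3, the maternally expressed RNA of the Dlk1 locus, differed by 0.40 and 0.57, its neighbour Rian by 0.36 and 0.38, Igf2 by 0.39 and 0.36, Plagl1 by 0.44 and 0.19 and Igf2r by 0.33 and 0.21. Dlk1, Meg3 and Rian include genes of both parental origins. Of 20 measured imprinted genes 14 were higher and 1 was lower in both replicates (all genes, 29.3% and 29.1%) and 2 agreed, Dlk1 and Cdkn1c, since the list does not hold Airn, with list medians of 0.20 and 0.22. Replicate 2 was above replicate 1 on this list as well, by a median of 0.45 in Foxd1+/+, 0.43 in Foxd1+/- and 0.39 in Foxd1-/- arrays. The array design does not separate the parental copies, and overlapping transcripts such as Airn and Igf2r may share signal.

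Genes of the fibroblast surface and matrix were among the higher genes. Pdgfra, the receptor for platelet-derived growth factor that marks fibroblasts, read 282, 237 and 452 in replicate 1 and 284, 335 and 478 in replicate 2. Its differences were 0.80 and 0.63 (0.72 ± 0.10, adjusted p = 0.120 in limma), and both Foxd1-/- arrays were above all carriers. Dpt (dermatopontin), Kera (keratocan) and Lum (lumican), which organise collagen fibrils, differed by 0.83 and 0.71, 0.78 and 0.74 and 0.64 and 0.55, and Tgfbi, a matrix adhesion protein, by 0.66 and 1.04. In bulk RNA, more cells of a type and more RNA per cell cannot be told apart.

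Around these, collagens and matrix genes showed a shift in the same direction that mostly missed the size. Of 38 measured matrix glycoproteins and crosslinkers, 25 were higher (65.8%, against 29.3% of all genes) and 4 lower in both replicates and 1, Lum, agreed. Fmod (fibromodulin) at 0.46 and 1.05 and Ogn (osteoglycin) at 0.54 and 0.44 were its next members. Of 25 collagens 14 were higher in both (56.0%), among them Col6a3 at 0.45 and 0.38, while 4 were lower and 0 agreed. Of 34 mesenchymal regulators 23 were higher in both (67.6%), 8 were lower and 3 agreed (Pdgfra, Dpt and Lum), with medians of 0.14 and 0.21. Tbx15, a regulator of skeletal and fibroblast identity, was higher at 0.40 and 0.52. Twist1, which drives the mesenchymal state, differed by 0.26 and 0.54. Thy1, a surface marker lost early in reprogramming, differed by 0.12 and -0.041 and Vim by -0.027 and -0.097, so not every fibroblast marker read higher.

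The other higher genes were of mixed roles. Epha3, an ephrin receptor, read 156, 152 and 243 in replicate 1 and 199.6, 222 and 356 in replicate 2 (0.71 ± 0.060, adjusted p = 0.0781 in limma), and Rasa3, a GTPase-activating protein for Ras and Rap, read 291, 294 and 455 in replicate 1 and 356, 322 and 531 in replicate 2 (0.64 ± 0.054, adjusted p = 0.0781). Both genes were higher on the 2 Foxd1-/- arrays than on any carrier, with little difference between carriers. Kitl, the ligand of the Kit receptor, differed by 0.52 and 0.64 and was also clear of all carriers. Ldb2, an adaptor of LIM homeodomain factors, differed by 0.92 and 0.91, and Cbr2, a carbonyl reductase, by 0.83 and 0.79, while Ccl11 (eotaxin) differed by 0.63 and 0.95 and Cfb (complement factor B) by 0.71 and 1.14. The remaining genes of this group were Gad2, Fmo1, Tmem100, Kctd12, Clca3a1 and Igfbp5, with smaller differences from 0.50 for Igfbp5 to 0.57 for Gad2.

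The 28 lower genes were of mixed roles. After Foxd1 the next was Nr0b1 (Dax1), an X-linked nuclear receptor of the pluripotency network, which read 600.2, 463 and 214 in replicate 1 and 297, 501 and 84.4 in replicate 2. Both Foxd1-/- arrays were below every carrier, with differences of -1.30 and -2.18, or 2.46-fold and 4.53-fold (-1.74 ± 0.28, adjusted p = 0.131 in limma). The carrier with Xist had more Nr0b1 than the carrier with Y-linked signal in each replicate. Sema3e, a secreted guidance cue for axons and vessels, read 252, 342 and 137 in replicate 1 and 283, 199 and 94.9 in replicate 2, below every carrier, with differences of -1.09 and -1.31 (-1.20 ± 0.18, adjusted p = 0.120 in limma).

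Slc7a11, the exchanger that imports cystine for glutathione synthesis, read 335, 293 and 151 in replicate 1 and 944, 1155 and 492 in replicate 2. Its differences of -1.05 and -1.08 were alike although the gene was higher in replicate 2 in every genotype, and the fit gave -1.07 ± 0.096 (limma, adjusted p = 0.0781). Of 20 measured genes of the Nrf2 and glutathione list, which holds Slc7a11, 12 were lower (60.0%, against 29.1% of all genes) and 2 higher in both replicates, with medians of -0.058 and -0.087, and Slc7a11 alone agreed. Nqo1, a standard target of Nrf2, differed by -0.25 and -0.31 but was highest on the carriers with Y-linked signal.

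Further lower genes were spread over tissues and functions. Epgn (epigen), a ligand of the EGF receptor, read 152, 163 and 92 in replicate 1 and 219, 233 and 142 in replicate 2, with near-identical carriers and differences of -0.77 and -0.67, and had the smallest p of all genes (-0.72 ± 0.057, limma adjusted p = 0.0781). Il7r, the interleukin 7 receptor, differed by -0.57 and -0.61 (-0.59 ± 0.053, adjusted p = 0.0781), also with near-identical carriers. Pknox2, a homeodomain protein that partners Hox factors, differed by -0.78 and -0.87, Mcpt1, a mast cell protease, by -1.10 and -1.01, Trpm3, a calcium-permeable channel, by -0.71 and -1.01, and Sprr2b, a protein of the cornified envelope, by -0.65 and -1.44.

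Several genes best known from neurons were among them. Slc17a6, a vesicular glutamate transporter, differed by -0.69 and -0.75, Uchl1, a neuronal ubiquitin hydrolase, by -0.59 and -1.16 and Nefl, a neurofilament subunit, by -0.52 and -1.66. Gad2, also best known from neurons, agreed on the other side, higher by 0.87 and 0.57. Of 24 measured genes of neural crest and neurons, 12 were lower and 5 higher in both replicates (all genes, 29.1% and 29.3%), with medians of -0.018 and -0.061, so the medians of the list were near 0. Elmod1 at -0.78 and -1.04 and Glipr1 at -0.54 and -0.58 were highest on the carrier with Y-linked signal: Elmod1 read 128, 248 and 103 in replicate 1 and 159, 93.7 and 58.8 in replicate 2. The other lower genes were Drp2, Cfap61, Limch1, Gas2l3, Zfp638, Hs3st3a1, Myh1, Enox2, Egfl6, Slc7a3, Lyz2, Laptm5 and the unnamed 2610318N02Rik, with smaller differences from -0.51 to -0.64. On the X chromosome, which carries 3.72% of the genes, lay 5 of the 28 (Nr0b1, Drp2, Enox2, Egfl6 and Slc7a3) and 1 of the 59 higher genes, Xist, while the median over 739 X-linked genes was -0.0040 and -0.011.

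Most macrophage and leukocyte genes read lower on both Foxd1-/- arrays. Of 34 measured macrophage and leukocyte genes, 24 were lower (70.6%, against 29.1% of all genes) and 1 was higher in both replicates, and Lyz2 and Laptm5 agreed. Lyz2 (lysozyme) read 677, 802 and 472 in replicate 1 and 833, 713 and 478 in replicate 2, and C1qa, a complement subunit made by macrophages, differed by -0.43 and -0.33. The summed intensity of the list was 5321, 5772 and 4338 in replicate 1 and 5045, 4525 and 4404 in replicate 2. The defining markers Ptprc, between 41 and 49.1, and Aif1, between 33.9 and 46.4, were near the low end on all 6 arrays. Both were split between replicates, Ptprc at 0.012 and -0.14 and Aif1 at 0.070 and -0.12. Mpeg1, a pore-forming protein of macrophages, was the other way in replicate 2, at 517 on the Foxd1-/- array against 187 and 169.9 on the carriers. The part of these cells in the other results was not tested.

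Proliferation genes were lower as a broad, shallow shift that was larger in replicate 2. Of 41 measured genes of mitosis and the spindle, 38 were lower in both replicates and 0 higher (all genes lower in both, 29.1%) and 0 agreed. The medians were -0.11 and -0.47. Hmmr, which binds spindle microtubules, read 261, 273 and 217 in replicate 1 and 202, 173 and 132 in replicate 2, with differences of -0.30 and -0.49. Kif4, a chromosome-bound kinesin, differed by -0.21 and -0.64, Cdc20, an activator of the anaphase-promoting complex, by -0.20 and -0.53 and Foxm1, the forkhead factor that drives mitotic genes, by -0.11 and -0.37.

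Of 39 DNA replication genes 31 were lower in both replicates (79.5%, against 29.1% of all genes) and 0 higher, with medians of -0.057 and -0.33. Without the Foxd1+/+ array of replicate 1 the 31 became 24. Rrm1, a subunit of ribonucleotide reductase, differed by -0.21 and -0.48 and Mcm5, part of the replicative helicase, by -0.16 and -0.33. Of 18 genes of homologous recombination and Fanconi repair 17 were lower in both (94.4%), with medians of -0.10 and -0.25. Of 26 genes of ribosome biogenesis and Myc targets 20 were lower in both (76.9%) and 0 higher, with medians of -0.071 and -0.13. Replicate 2 minus replicate 1 of the mitotic list had a median of -0.28 in Foxd1+/+ and -0.25 in Foxd1+/-, against -0.66 in Foxd1-/-.

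Promoter letters of these lists differed from those of the interferon genes. The cell cycle homology region TTTGAA was in the window of 26 of 34 mitosis genes (76.5%) and of 2687 of 15563 measured genes (17.3%), and CCAAT in 24 of 34 (70.6%) against 41.7%. The E2F sites TTTCCCGC or TTTGGCGC were in 11 of 33 replication genes (33.3%) against 2.55%. The forkhead motif TGTTTAC was in 2 of the 22 agreeing lower genes with a window (9.09%), 3 of the 40 higher ones (7.5%) and 3.54% of all. Both strands were searched, and the lists were chosen by function, so these shares describe the lists and not the Foxd1-/- difference.

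**Figure D4:**
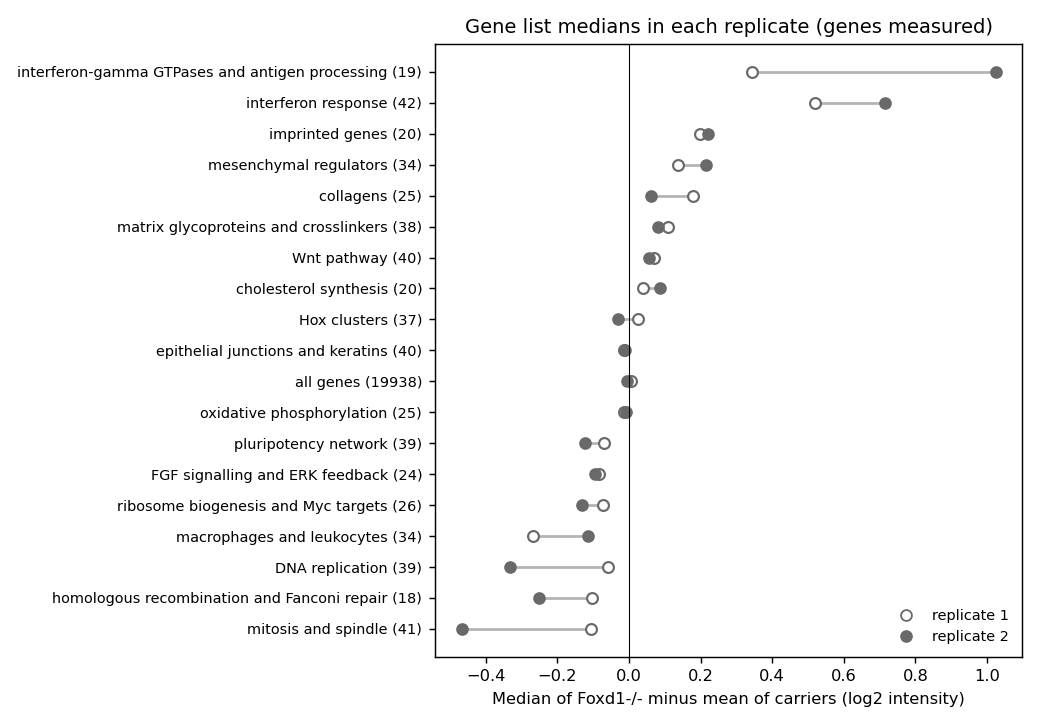
Median Foxd1-/- minus carrier difference (log2 intensity) of selected gene lists in replicate 1 (open circles) and replicate 2 (filled circles), with the number of genes measured in brackets and the median of all genes for reference. The interferon response and interferon gamma lists had the highest medians shown in both replicates. The lowest were mitosis, replication and repair in replicate 2 and macrophages and leukocytes in replicate 1, while imprinted genes were near 0.2 in both.

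Pluripotency genes gave differences that were small at the median, and the carriers differed from each other on this list. Of 39 measured members, 23 were lower and 5 higher in both replicates (59.0% and 12.8%, against 29.1% and 29.3% of all genes), and Nr0b1 alone agreed. The medians were -0.068 and -0.12, while Foxd1+/- minus Foxd1+/+ had a median of -0.21 in replicate 1 and 0.15 in replicate 2, so that the carrier with Xist was the higher one in each. Nanog differed by -0.38 and -0.50, Fgf4, an early growth factor of pluripotent cells, by -0.33 and -0.58 and Epcam, an epithelial adhesion molecule gained in reprogramming, by -0.28 and -0.69, while Fbxo15, a target of Oct4 and Sox2, was higher at 0.35 and 0.61. For Nanog the Foxd1-/- array was below both carriers in each replicate, and nearer to the carrier with Y-linked signal. A term for the Y-linked markers in the paired fit moved Nanog from -0.44 to -0.69 (limma adjusted p from 0.452 to 0.0539), Pou5f1 from -0.41 to -0.89 (from 0.766 to 0.0539) and Esrrb, a nuclear receptor of the same network, from -0.28 to -0.46 (from 0.557 to 0.126). Genes of FGF signalling and its ERK feedback were lower in both replicates for 14 of 24 (58.3%, against 29.1% of all genes) and higher for 3, among them Etv4 at -0.37 and -0.61 and Spry4 at -0.33 and -0.42.

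Several other lists had medians near those of all genes. Epithelial junctions and keratins had medians of -0.013 and -0.012 over 40 genes, Hox clusters 0.024 and -0.030 over 37, and oxidative phosphorylation -0.015 and -0.0078 over 25. Smooth muscle and contractile genes were farther off, with medians of -0.0905 and -0.078 and 12 of 21 lower in both (57.1%, against 29.1% of all genes). On this list the carriers differed more from each other. Foxd1+/- minus Foxd1+/+ had a median of 0.24 in replicate 1 and -0.25 in replicate 2, high on the arrays with Y-linked signal. Myl9, a myosin light chain, read 309.9, 572 and 333 in replicate 1 and 634, 374 and 384 in replicate 2. Kidney stroma and nephron progenitor genes, the setting in which Foxd1 is best known, had medians of -0.0032 and -0.054 over 21 genes, and Foxd1 alone agreed. Meis1, a homeodomain factor of that stroma, was higher at 0.43 and 0.65. Lists farther from all genes were complement and replication histones. Of 13 complement genes 7 were higher and 5 lower in both replicates (53.8% and 38.5%, against 29.3% and 29.1% of all genes). Their medians were 0.077 and 0.31. Of 12 replication histones 9 were lower in both (75.0%) and 1 higher, with medians of -0.047 and -0.27.

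Whether the Foxd1-/- difference itself differed between replicates was tested with limma as an interaction, and 2 genes (0.0100%) passed. H2-Aa, a chain of the class II molecules that present antigen, read 30.2, 30.7 and 33.3 in replicate 1. In replicate 2 it read 50.7, 50.1 and 301, so only the Foxd1-/- array of replicate 2 stood out. Its difference was larger in replicate 2 by 2.43 ± 0.089 (SE; adjusted p = 0.0299). Cxcl9, a chemokine induced by interferon gamma, read 58.6, 56.9 and 54.3 in replicate 1 and 88.7, 90.3 and 357 in replicate 2, with an interaction of 2.07 ± 0.092 (adjusted p = 0.0371). An unadjusted p under 0.05 was found for 819 genes.

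The next genes by p had the same pattern without passing. Cd74, the chaperone of class II molecules, read 35.9, 36.7 and 36.3 in replicate 1 and 50.2, 60.8 and 387 in replicate 2 (interaction 2.79 ± 0.17, limma adjusted p = 0.132), and Gbp5, H2-T10 and Gbp8 had interactions of 1.68, 1.55 and 1.60. Ciita, the factor that switches class II genes on, read 44.3, 45.5 and 44.2 in replicate 1 and 41.8, 51.7 and 62.9 in replicate 2, a difference of 0.43 in replicate 2. The tests rest on 2 residual degrees of freedom, which come from Foxd1+/+ against Foxd1+/- within a number. With a pseudocount of 16 or with dim genes left out, 1 gene passed.

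**Figure D5:**
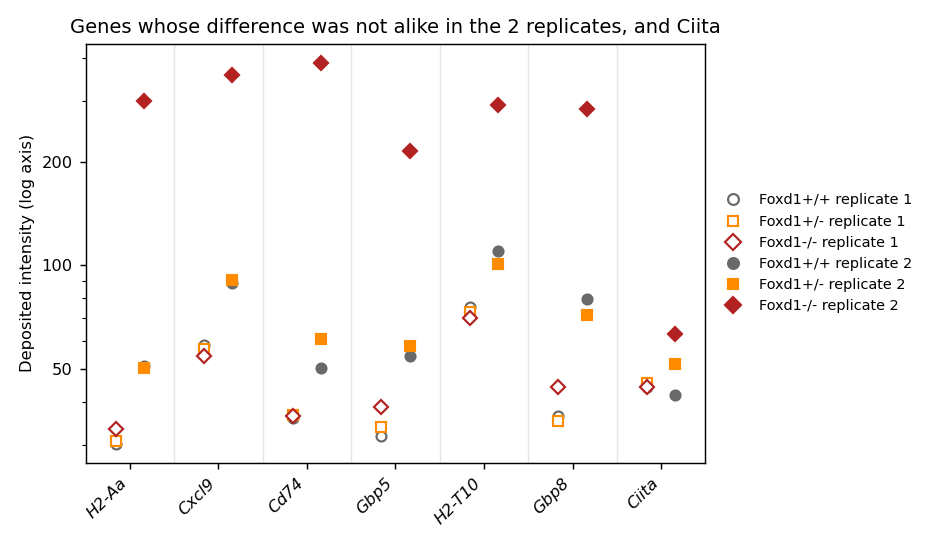
Deposited intensity on a log axis of the 6 genes with the smallest interaction p and of Ciita on each array, open symbols for replicate 1 and filled for replicate 2. In replicate 1 the 3 genotypes lie close together. For the 6 genes the Foxd1-/- array of replicate 2 lies apart, at 301 for H2-Aa and 387 for Cd74. For Ciita it does not, at 62.9 against 41.8 and 51.7 on the carriers.

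The carriers were also set against each other, since the comparison pools them. Foxd1+/- against Foxd1+/+ gave 0 called genes (0%) in limma with the replicate block, and 400 at an unadjusted p under 0.05. A difference of at least 0.5 on the same side in both replicates was found for 0 genes, against 44 genes on opposite sides, 4 of them agreeing genes. Across genes the 2 carrier differences had a Pearson r of -0.473, and the Y-linked signal sat on Foxd1+/- in replicate 1 and on Foxd1+/+ in replicate 2. An exchange of the 2 carrier labels within a number would leave every Foxd1-/- minus carrier mean as it is.

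A term for the Y-linked markers was therefore added to the paired fit, chosen after the data were seen. Limma then called 8 genes (0.0401%) at an adjusted p below 0.05, and all 8 were agreeing genes. Foxd1 was lower by 3.30 in log2 (adjusted p = 3.97e-05), with Slc7a11 at -1.19 ± 0.054 (adjusted p = 0.00835), Pknox2 at -0.99 ± 0.057 (0.0212) and Sema3e at -0.97 ± 0.073 (0.0471). Higher were Ifi203 at 1.06 ± 0.084, Gbp3 at 0.95 ± 0.075, Stat2 at 0.74 ± 0.052 and Airn at 0.72 ± 0.056, each with an adjusted p of 0.0471. Nr0b1 read -2.02 ± 0.23 (adjusted p = 0.0576) and Ifit3 1.30 ± 0.19 (0.0839), and Xist was 0.29 ± 0.10. Here 209 genes were under 0.1 and 2883 had an unadjusted p under 0.05, and 2 residual degrees of freedom remained.

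Set against only the carrier without Y-linked signal, the agreement rule gave 43 higher and 35 lower genes. Of the 59 higher genes 32 were among the 43, and of the 28 lower genes 22 were among the 35. Rsad2, at 332 on the Foxd1+/- and 333 on the Foxd1-/- array of replicate 2, was not among the 43, and the median of the interferon list was 0.47 in this setting against 0.67 in the paired fit. The 0.47 comes from the fit with the Y-linked term. That fit estimates the mean of the differences from the carrier without Y-linked signal, so it is not a separate check. Each Foxd1-/- array was a single culture per number, and how far another pair of cultures would differ is not known.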

How the data were processed

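RNA from 6 cultures was hybridised to single-colour Affymetrix arrays from 300 ng per sample, per the labels' protocols. The authors deposited linear intensity values of 28856 probe sets, and the sources used here do not state how background was corrected or arrays were normalized. The median per array ranged from 76.5 to 79.6. No detection calls were used, so signal over background is unknown. The platform annotation gave 21789 of them 1 symbol, 1621 several and 5446 none, and 19938 genes remained after the probe set with the highest mean was kept for the 999 genes with several. By Entrez identifier 19856 genes matched the RefSeq gene table.

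Values were analysed as log2(intensity + 1) with limma 3.58.1 in R 4.3.3 (Python 3.11.15 for counts and plots), fitted over all genes and tested on simulated data. The paired fit had a replicate block and a Foxd1-/- term. Further fits added the interaction of both, or gave each genotype its own mean. The pairing comes from the replicate numbers in the titles: across genes, the change between the 2 arrays of a genotype had r from 0.55 to 0.73 with that of another genotype.

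Genes were named by this rule: Foxd1 and the introduced factors, up to 15 agreeing genes per direction by the smaller difference, up to 4 members per list by the same measure with defining markers, and the 6 genes of smallest interaction p, leaving out provisional names and chemosensory receptors. The members, the gene lists and the rules were chosen with earlier results of these data known, and the lists are described by counts and medians only. Promoter windows came from RefSeq (GRCm38.p6). Alternatives were another pseudocount (16), a filter on a mean log2 value of 6, quantile normalization, median centring, means of probe sets, no block, a trended prior, other agreement sizes and leaving out each array. A term for Y-linked markers, an adjusted p of 0.1 and the use of only the carrier without Y-linked markers were added after the data were seen.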

Additional observations from a re-analysis of the deposited data

Results flagged for a closer look

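Both genes whose Foxd1-/- difference passed the test of a difference between replicates are listed here. H2-Aa had a difference that was 2.43 larger in replicate 2 than in replicate 1 on the log2 scale, and Cxcl9 one that was 2.07 larger (limma, Benjamini-Hochberg over all genes). Both read near the low end of the scale on the arrays of replicate 1 and were high only on the Foxd1-/- array of replicate 2.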

How the results depend on the processing

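The number of genes called by paired fit moved from 0 to 15 with dim genes left out, 7 with arrays centred on the median, 38 with a trended prior, 8 with the term for Y-linked markers and 44 at an adjusted p under 0.1. Without the replicate block it stayed at 0, with 786 genes at an unadjusted p under 0.05 in place of 2333, and leaving out 1 array gave 0 to 56 genes, with 56 without the Foxd1-/- array of replicate 1 and 0 otherwise. The interaction called 1 gene with a pseudocount of 16 and 1 with dim genes left out. The agreeing higher genes numbered 5 at a size of 1 and 189 at a size of 0.3, and 43 to 84 with 1 carrier array left out. The lower ones numbered 5 and 120, and 26 to 32. Leaving out a Foxd1-/- array leaves 1 difference and gives no agreement count. The interferon list's median of 0.672 became 0.474 against only the carrier without Y-linked markers and 0.505 to 0.719 with 1 array left out. The imprinted list's median of 0.236 became 0.275 with dim genes left out, 0.217 after quantile normalization, 0.203 against only the carrier without Y-linked markers and 0.152 to 0.281 with 1 array left out. Of the named genes, Sox2 changed sign to 0.024 without Foxd1+/+ replicate 1 and to 0.026 without Foxd1+/+ replicate 2, in a range of -0.153 to 0.0264 with 1 array left out. Cxcl9 and H2-T10 changed sign without Foxd1-/- replicate 2 and ranged from -0.088 to 1.99 and from -0.083 to 1.47. The paired fit has 3 residual degrees of freedom, and the arrays carry no detection call, so a difference of a dim gene may be understated by an unknown amount. The causes of these changes were not tested.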
